A study of Sus scrofa with 39 samples.

Results

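Whole-blood RNA from 7 healthy preterm piglets of batch 3 was compared between 2 series of sequencing libraries. The 7 libraries were chosen by their labels: batch 3, severity Con, and a library name that holds either BKDL (4 piglets) or FKDL (3 piglets). They are 7 of the 39 libraries of a study of necrotizing enterocolitis (NEC), an inflammatory disease that destroys bowel tissue in the preterm newborn; 20 of the 39 piglets had NEC and 19 were controls. All piglets were preterm, formula fed and examined at necropsy on day 5, and controls had no NEC there. The 3 FKDL piglets were all labelled male. Of the BKDL piglets, BKDL 2 was male and BKDL 1, 3 and 4 were female. The labels give the same tissue (blood) and RNA kit, mRNA library kit and sequencer for both series, and no strain, treatment or day of blood draw. The labels do not say what the letters stand for, and the names are read only as a library series. The description of FKDL 2 ends in "merge", which that of no other of the 7 does. The other 12 controls served for comparison: 7 of batch 1, from another library series, and 5 of batch 2, which were FKDL libraries.

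Most RNA in whole blood comes from red cells, because reticulocytes, the youngest red cells in circulation, still hold globin and haem synthesis transcripts after losing their nucleus. Ferritin, made of a light chain (FTL) and a heavy chain, stores the iron that these cells take up for haem. Leukocytes, the nucleated cells, supply most other transcripts, so the share of red cell RNA sets how much of a library is left to describe immune cells.

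Globin genes took 56.7, 61.5 and 56.4% of the counts on genes in FKDL 1, 2 and 3, and 24.1, 56.6, 58.4 and 63.0% in BKDL 1, 2, 3 and 4. BKDL 1 thus lay far below the other 6, which overlapped between the series. HBB, the beta chain of haemoglobin, made up nearly all of this share. Of 14 listed globin genes only 4 had a symbol (HBB, HBM, HBZ and HBQ1), so the share leaves out the adult alpha chain. A second gene without a symbol (ENSSSCG00000007978) took 27.1, 24.8 and 24.3% of counts in the FKDL libraries and 10.9, 22.4, 24.1 and 21.7% in the BKDL libraries, again lowest in BKDL 1. It was kept out of the globin share, and whether it is a globin gene was not tested. Counts on genes were 16.7 to 19.0 M (mega) in FKDL and 12.8 to 21.4 M in BKDL libraries. Outside globin and the second gene, 12.5 M counts were left in BKDL 1, against 1.96 to 4.48 M in the other 6. None of the 9 measures of library makeup passed the test between the series (exact 2-sided permutation test of 4 against 3, lowest adjusted p = 0.514; the smallest raw p this design allows is 0.0571). Wilson 95% intervals of the globin shares were at most 0.0528 percentage points wide and cover counting error only.

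Reads aligned to several places, which count for no gene, made up 31.3, 39.5 and 16.4% of all assigned and unassigned lines in the FKDL libraries. They made up 31.2, 51.6, 51.6 and 51.9% in the BKDL libraries, where BKDL 2, 3 and 4 were nearly equal and above every FKDL library, and BKDL 1 lay among the FKDL libraries. Reads that were ambiguous between genes moved the other way, at 5.08, 4.33 and 6.36% in FKDL and 5.62, 2.40, 2.35 and 2.10% in BKDL libraries. The mean difference was 17.5 percentage points for reads at several places and -2.14 for ambiguous reads (exact permutation p = 0.171 and adjusted p = 0.514 for each). Taken as a share of all lines, unassigned ones included, the globin share was lower in every BKDL library, at 23.5% (SD 6.27, n = 4) against 36.9% (SD 4.20, n = 3), with an exact permutation p of 0.0571, the smallest possible. This did not hold against all FKDL libraries. In the FKDL controls of batch 2 this share ran from 23.9 to 43.8%, beside 14.3, 25.2, 26.2 and 28.3% in BKDL 1, 2, 3 and 4. Reads at several places were assigned to no gene, so what they would add to the globin counts is not known.

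**Figure D1:**
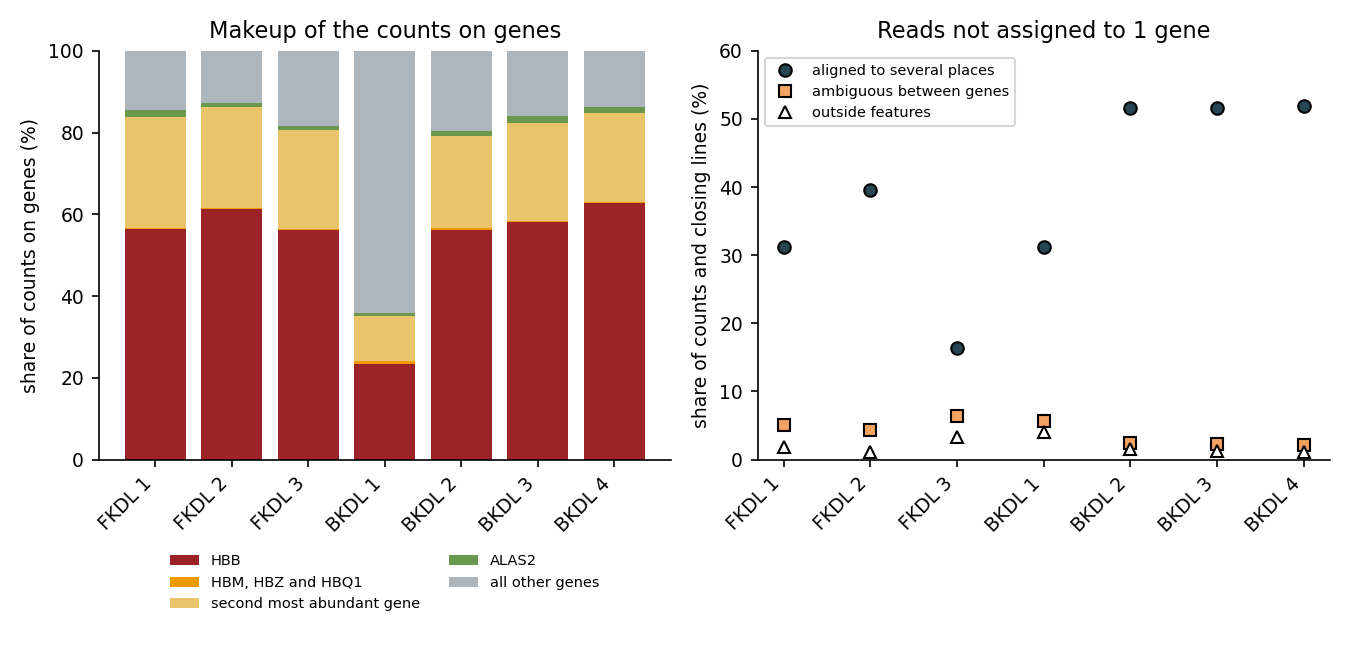
Left, makeup of the counts on genes (% of counts) in the 7 control libraries of batch 3, stacked by gene; right, reads aligned to several places, ambiguous between genes or outside features (% of counts and closing lines). The globin share of BKDL 1 is 24.1%, against 56.4 to 63.0% in the other 6 libraries, while BKDL 2, 3 and 4 have 51.6 to 51.9% of reads at several places.

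HBB, ALAS2 and SLC4A1 (red cells), CD3E and CD3D (T cells), CD79A (B cells), CSF1R and CD14 (monocytes) and CSF3R (neutrophils) were all detected in each of the 7 libraries, while EPCAM, an epithelial gene, had 0 counts and ALB, made by the liver, 0 to 2. COL1A1, a gene of stroma, had 6, 30 and 8 counts in FKDL and 161, 20, 62 and 8 in BKDL libraries. ACTA1, a gene of skeletal muscle, had 5, 19 and 0 in FKDL and 45, 1, 12 and 2 in BKDL libraries. Both were highest in BKDL 1, and the source of these reads was not tested. A count of 0 allows up to 0.140 to 0.234 CPM (counts scaled to library size), depending on the library. KDM5D and EIF1AY, carried by the Y chromosome, had counts in the 4 libraries labelled male and 0 in the 3 labelled female.

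Ferritin light chain RNA, a ribosomal protein RNA and a handful of other transcripts were low in the BKDL libraries. Of 9881 tested genes, 6 were called different between the series (0.0607%; edgeR's quasi-likelihood test over all 39 libraries with group and sex terms, FDR under 0.05), all 6 lower in BKDL. FTL, RPL36A and SYVN1 have symbols and the other 3 do not. DESeq2 called 28 genes (0.283%). No gene was called higher by edgeR; 504 genes had an unadjusted p under 0.05, 260 of them lower and 244 higher. Without BKDL 2, without BKDL 3, or in the 7 libraries alone with a sex term 0 genes were called, without FKDL 2 1 and without BKDL 1 13, and series and sex nearly coincide here. In what follows, scaled CPM are CPM divided by the library's TMM factor, which allows for the few very abundant red cell genes.

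FTL lies at chromosome 6, 54231121 to 54232756 (Sscrofa11.1, RefSeq), with no other RefSeq gene over its span. Its scaled CPM was 1252, 3195 and 1480 in FKDL 1, 2 and 3, and 37.2, 85.9, 75.1 and 128.5 in BKDL 1 to 4. Every FKDL library stood above every BKDL library, by nearly a factor of 10 at the closest. The log2 fold change was -4.30 ± 0.76 (SE, adjusted p = 0.00934), and it was -4.11 without BKDL 1 (adjusted p = 0.0298). Reads at several places, given above for each library, also differed between the series, and their part in this difference was not tested. Of the 14 tested genes of iron handling, FTL was the one called; the median log2 fold change of the list was -0.06 (-0.27 without BKDL 4), with 6 genes above 0 and 8 below, beside 0.05 over all tested genes.

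RPL36A, a protein of the large ribosomal subunit (chromosome X, 83018305 to 83022285), had scaled CPM of 53.7, 82.6 and 83.9 in FKDL and 10.2, 7.91, 4.53 and 7.33 in BKDL libraries. The 2 sets did not overlap, with a log2 fold change of -2.74 ± 0.57 (adjusted p = 0.0451). SYVN1, a ubiquitin ligase of the endoplasmic reticulum (chromosome 2, 7059444 to 7066617), stood at 14.4, 24.8 and 31.9 in FKDL and 3.57, 0.736, 0.882 and 1.96 in BKDL libraries, with no overlap (log2 fold change -3.34 ± 0.67, adjusted p = 0.0369). Its span meets the ends of SPDYC and MRPL49 in RefSeq, so its counts may include reads of those genes. Of the 3 genes without a symbol, ENSSSCG00000031838 had 20.6, 37.3 and 70.9 scaled CPM in FKDL and 2.41 to 4.50 in BKDL libraries. ENSSSCG00000016840 had 5.28, 32.8 and 14.8 in FKDL and 0.235 to 1.03 in BKDL libraries. ENSSSCG00000018076 had 36, 209 and 212 counts in FKDL libraries, 12 counts in BKDL 1 and 0 in the other 3 BKDL libraries; its fitted change depends on the prior count and is not given.

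Next in order of p, among genes with a symbol and a mean of at least 5 scaled CPM, came 2 genes that were not called. HEPACAM, a cell adhesion gene best known from glia and liver, had 932, 1328 and 1390 scaled CPM in FKDL and 5.28, 23.3, 15.8 and 60.2 in BKDL libraries (log2 fold change -4.79 ± 1.07, adjusted p = 0.0750). PFN1, the actin-binding protein profilin, had 46.3, 36.6 and 51.7 in FKDL and 21.2, 9.76, 10.2 and 7.54 in BKDL libraries (-1.95 ± 0.46, adjusted p = 0.103). Both sets were separate in each gene, and HEPACAM shares its span with HEPN1, so the reads counted for it may be of either. Separation of the series adds little support for any gene named here, and these 2 were picked by p in the same comparison. With 4 against 3 libraries the exact permutation p can be no lower than 0.0571, and 9881 genes were tested. How many of all the genes separated is not given.

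The same genes were then read in the other libraries of the study, which the comparison of the 7 did not set against each other. FTL lay at 368 to 5804 scaled CPM in all 21 FKDL libraries, controls and NEC, batches 2 and 3, and at 6.87 to 57.3 in all 14 libraries of batch 1. The BKDL libraries, at 37.2 to 128.5, thus stood next to batch 1 and below every FKDL library. RPL36A ranged from 9.89 to 138.3 in FKDL libraries and from 3.43 to 20.5 in batch 1, with some overlap. SYVN1 ranged from 4.91 to 87.7 in FKDL and from 1.86 to 10.5 in batch 1. HEPACAM separated all 3 series, at 355 to 12860 in FKDL, 5.28 to 60.2 in BKDL and 0 to 2.15 in batch 1. Batch 1 libraries had 20.9 to 35.5% of reads at several places and 9.92 to 15.2% ambiguous reads, and the 21 FKDL libraries 16.4 to 46.2% and 2.91 to 6.36%. Whether library making, the piglets, the time of processing or the mapping of reads set these levels was not tested.

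**Figure D2:**
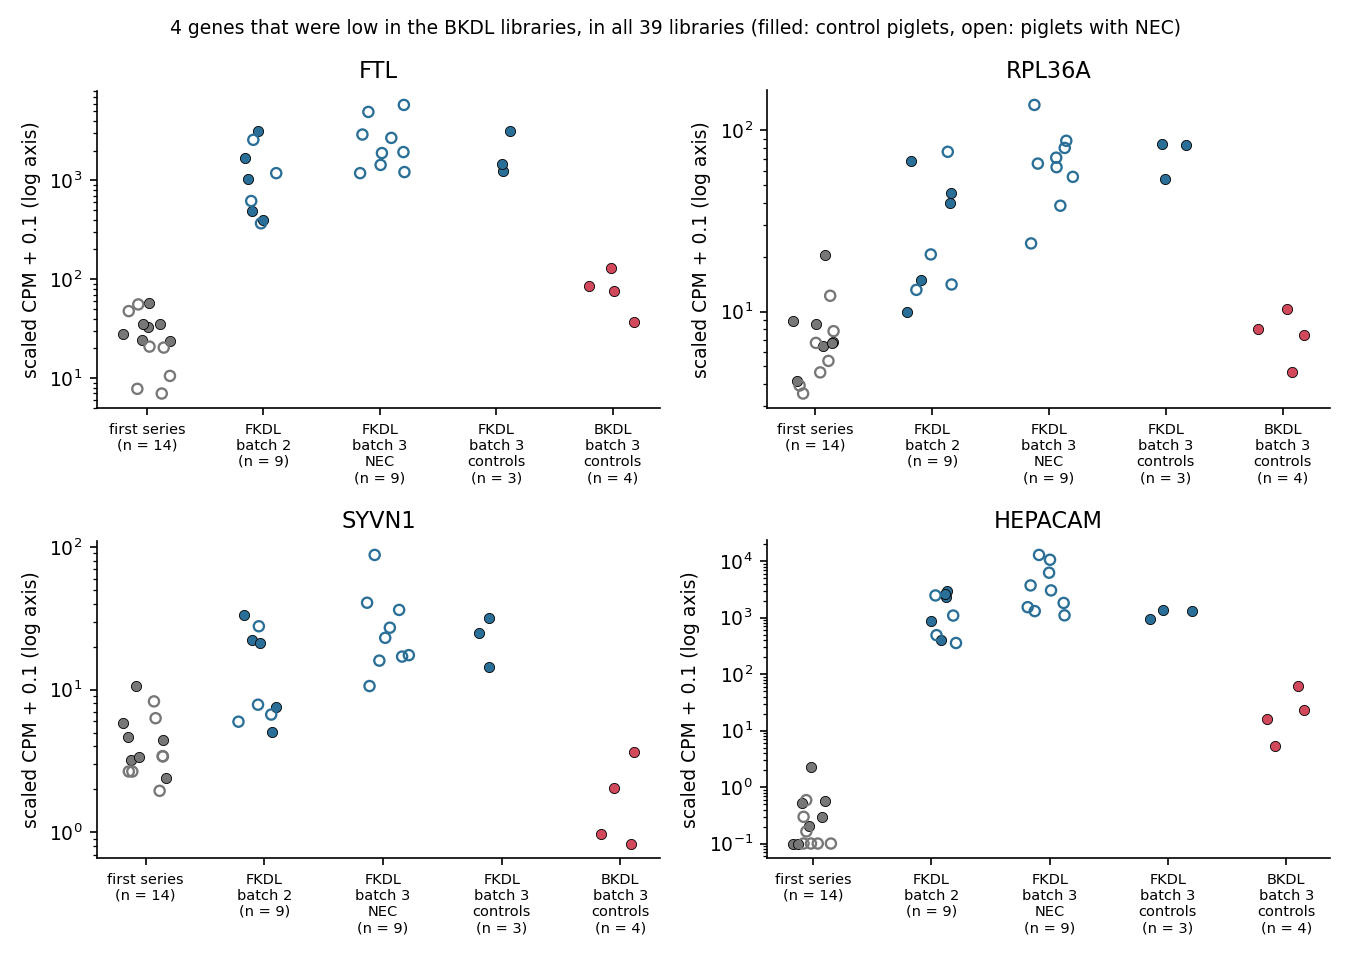
Scaled CPM plus 0.1 (log axis) of FTL, RPL36A, SYVN1 and HEPACAM in all 39 libraries by library series and batch, 1 point per piglet, filled for controls and open for NEC. FTL is at 368 or above in every FKDL library and at 128.5 or below in every BKDL and batch 1 library.

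Against the 5 FKDL controls of batch 2, which are other piglets, the same 4 BKDL libraries gave 12 called genes (0.121%; 2 higher, 0.0202%, and 10 lower, 0.101%). FTL was lower there too, with a log2 fold change of -3.79 (adjusted p = 0.00891), and so were SYVN1 at -2.96 (adjusted p = 0.0293), HEPACAM at -5.45 (adjusted p = 0.00976), PFN1 at -1.91 (adjusted p = 0.0378) and ATP8 at -5.97 (adjusted p = 0.00748). RPL36A had -1.77 and was not called (adjusted p = 0.281). Both comparisons share the BKDL libraries. Between the FKDL controls of batch 3 and those of batch 2, 0 genes were called (0%) by edgeR, 906 had an unadjusted p under 0.05, and DESeq2 called 26.

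Low levels in BKDL went with short genes. Among the 13 mitochondrially encoded genes, which are read from 1 short genome, the log2 fold change ran with gene length. ATP8, at 204 bases a subunit of ATP synthase, had 112, 55 and 77 counts in FKDL libraries and 2, 7, 3 and 4 in BKDL libraries (-5.09 ± 1.12, adjusted p = 0.0750). ND3 and ND6, subunits of respiratory complex I, are 346 and 528 bases long and had -1.75 ± 0.41 (adjusted p = 0.103) and -1.35 ± 0.57 (adjusted p = 0.856), with no overlap of the 2 series. ND4L, at 297 bases, had -1.53 ± 0.80 (adjusted p = 0.994), and there the series overlapped. The longer COX2, COX3 and ND1 had no overlap, so a lack of overlap did not mark the short genes. ND3 stood at 57.5, 66.5 and 66.4 scaled CPM in FKDL and 19.5, 14.5, 15.8 and 11.7 in BKDL libraries. At the long end, COX1 (1545 bases) had 0.08 ± 0.51 and ND5 (1821 bases) 0.53 ± 0.64. None of the 13 was called. Spearman's rho of fold change and length over the 13 genes was 0.940, and 0.929 without BKDL 1; these genes share their libraries, and ATP8 overlaps ATP6 and ND4L overlaps ND4, so part of their reads is ambiguous.

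Across all tested genes with a RefSeq span (8200, or 83% of those tested), the median log2 fold change was -0.40 for the 21 genes of up to 1 kb, -0.25 for the 90 genes of 1 to 2 kb, and 0.13 for the 2230 genes over 64 kb. An unadjusted p under 0.05 with a lower level in BKDL was found for 19.0% of the shortest genes, 15.6% of those of 1 to 2 kb and 0.897% of those over 64 kb. The shortest genes include the mitochondrially encoded genes of up to 1 kb, so their values are not separate from those above. ATP8, ND3 and ND6 are among the 4 shortest genes with such a p. Without BKDL 1 the medians were -0.49, -0.51 and 0.20. Span includes introns, and transcript length was not used here. Spearman's rho across these genes, which are not independent, was 0.160, and 0.320 without BKDL 1. Fragment size and RNA integrity were not used here, so their part was not tested.

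**Figure D3:**
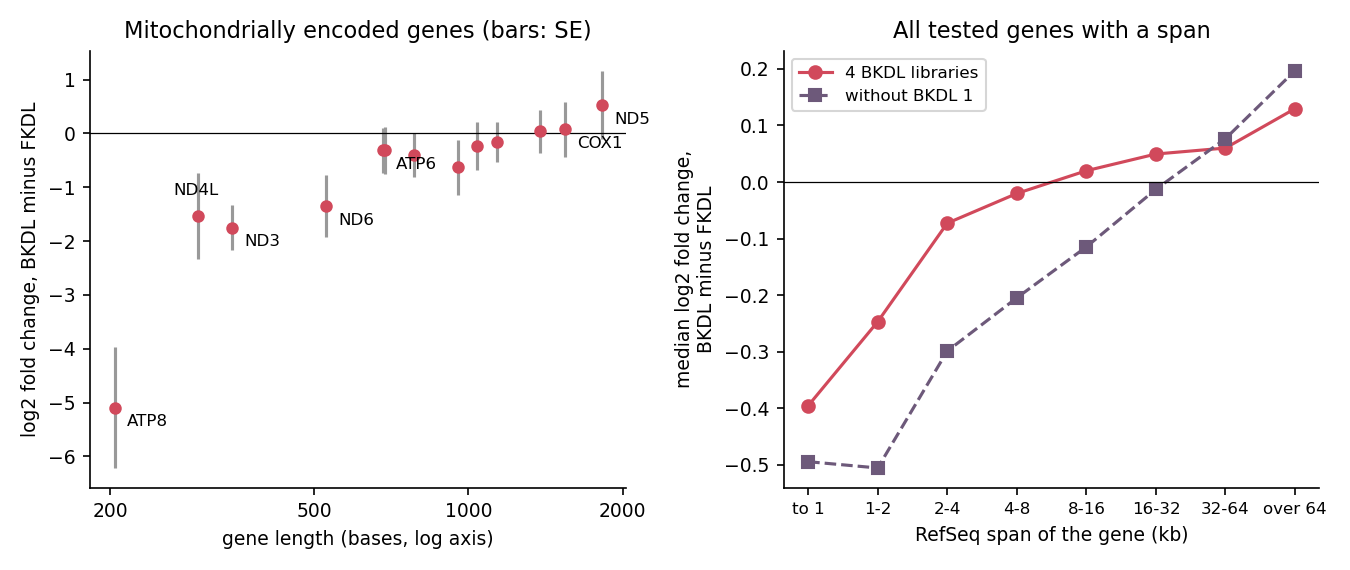
Left, log2 fold change (BKDL minus FKDL, points, with bars for the SE) of the 13 mitochondrially encoded genes against their length in bases on a log axis; right, median log2 fold change by RefSeq span of the gene, with all 4 BKDL libraries (solid line) and without BKDL 1 (dashed line). Fold change runs from -5.09 for ATP8 to 0.53 for ND5, and the median from -0.40 for the shortest spans to 0.13 for the longest.

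Ribosomal protein transcripts, short and abundant, lay on the low side as a list. Of 43 tested cytosolic ribosomal protein genes 41 were below 0 in BKDL, with a median log2 fold change of -0.63 beside 0.05 for all genes, but RPL36A was the one called and 13 had an unadjusted p under 0.05, all lower, beside 260 lower of 9881 genes. RPL38 had 156.3, 545.6 and 312.5 scaled CPM in FKDL and 72.7, 63.7, 38.1 and 49.3 in BKDL libraries (-2.14 ± 0.57, adjusted p = 0.222). RPL23A had 138.8, 497.1 and 222.4 in FKDL and 41.5, 36.3, 47.1 and 65.1 in BKDL libraries (-2.02, adjusted p = 0.189). FKDL 2 was the highest in both, and each gene was separate between the series. The mean log2 level of the list was 7.43, 8.58 and 7.94 in FKDL libraries and 7.42, 7.05, 6.49 and 6.80 in BKDL libraries, so BKDL 1 lay beside FKDL 1 and the other 3 below. Without FKDL 2 the median of the list was -0.23. With counts scaled to the total alone it was 0.34, below the 0.67 of all genes, so its sign depends on the scaling. Ribosomal protein genes have many processed copies, and 31.2 to 51.9% of BKDL reads were aligned to several places, so these counts are uncertain.

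The nuclear genes of oxidative phosphorylation had a median of -0.30, with 33 of 42 below 0 and 0 called; 8 had an unadjusted p under 0.05, all lower, beside 260 lower of 9881 genes. Without BKDL 1 the median was -0.51. With counts scaled to the total alone this median was 0.40, and that of the mitochondrially encoded genes, -0.31 with TMM, was 0.35, both below that of all genes. ATP5MC3, a ring subunit of ATP synthase, had 9.16, 7.36 and 10.5 scaled CPM in FKDL and 5.60, 3.83, 3.06 and 2.17 in BKDL libraries, with no overlap (-1.23 ± 0.35, adjusted p = 0.311). NQO1, a quinone reductase of the peroxide defence list, had 4.62, 12.4 and 10.8 in FKDL and 0.906, 1.33, 3.59 and 4.24 in BKDL libraries (-2.43 ± 0.58, adjusted p = 0.103).

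Immune cell lists held no called gene in the comparison of the series. The cytotoxic lymphocyte list had 15 of 17 genes below 0 and a median of -0.58 (-0.02 with total counts, and -1.10 to -0.32 as 1 library was left out, the lowest without BKDL 3 and the highest without BKDL 2). NCR1, a receptor of natural killer cells, had 2.57, 2.17 and 1.76 scaled CPM in FKDL and 0.164, 0.258, 1.41 and 0 in BKDL libraries, with no overlap (-2.35, adjusted p = 0.847). The list's mean log2 level was 2.06 to 2.10 in the 3 FKDL libraries and 0.991, 0.706, 2.34 and 1.42 in BKDL, with BKDL 3 above all of them. The neutrophil granule list had a median of 0.65 over 12 genes, which turned to -0.33 without BKDL 1 and was 0.99 without FKDL 1. The mature neutrophil list had 0.29 over 15 genes, which turned to -0.17 without BKDL 1 and was 0.70 without FKDL 1. Medians were 0.12 for 28 T cell genes, 0.12 for 21 B cell genes, 0.05 for 16 monocyte genes, 0.31 for 31 platelet genes and 0.24 for 39 interferon-stimulated genes, beside 0.05 for all genes. These too moved with single libraries. The T cell median ran from 0.02 (without FKDL 1) to 0.30 (without BKDL 2), and the B cell median from 0.03 (without BKDL 2) to 0.34 (without FKDL 3). The monocyte median ran from -0.23 (without BKDL 1) to 0.33 (without FKDL 1), the platelet median from 0.18 (without BKDL 4) to 0.51 (without FKDL 2), and the interferon-stimulated median from -0.04 (without BKDL 2) to 0.64 (without FKDL 1). Fewer cells of a type and less RNA per cell cannot be told apart in whole blood. CD3E stood at 21.7, 39.96 and 44.1 in FKDL and 35.2, 21.8, 30.5 and 25.1 in BKDL libraries, and CD79A at 8.36 to 20.3 in FKDL and 10.3 to 14.8 in BKDL libraries, overlapping in both.

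**Figure D4:**
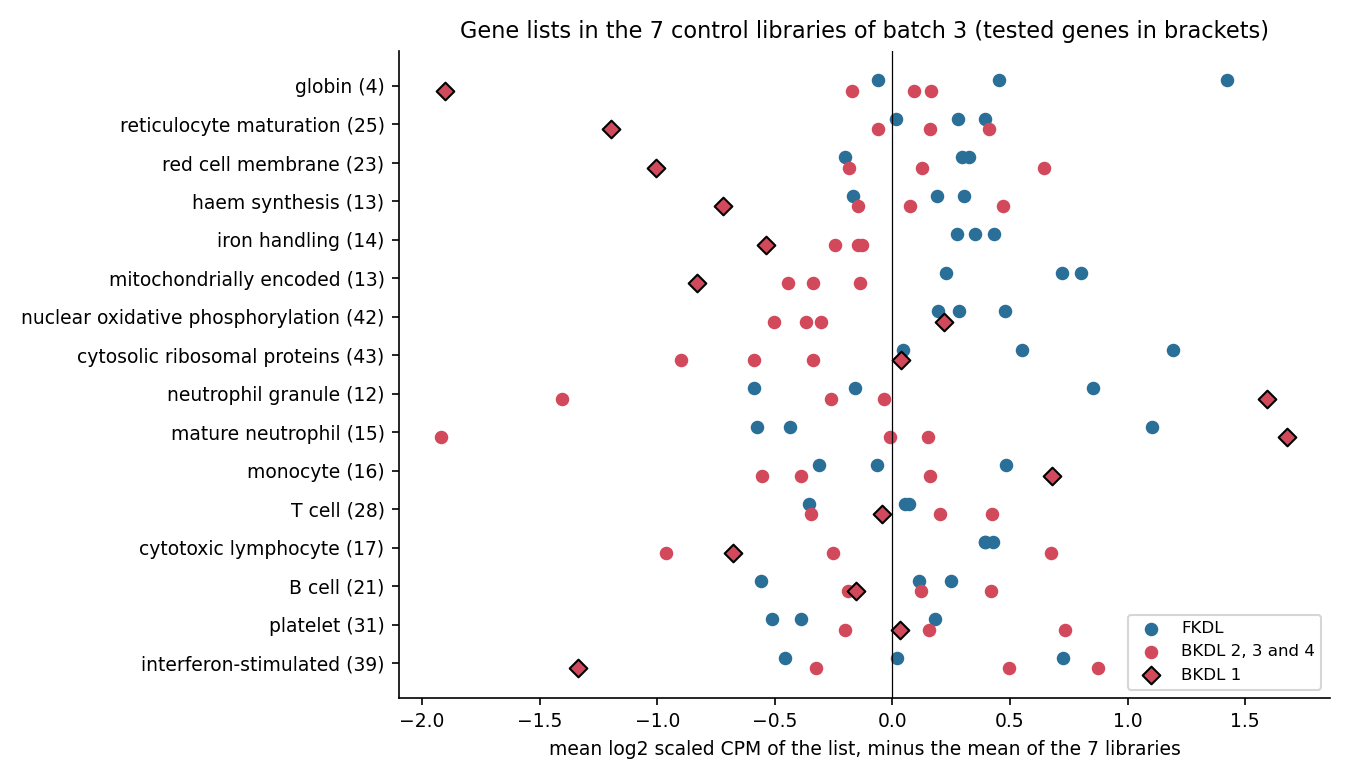
Mean log2 scaled CPM of 16 gene lists in each of the 7 control libraries, as the difference from the mean of the 7 (blue, FKDL; red, BKDL; the diamond is BKDL 1). BKDL 1 is lowest in the globin, reticulocyte maturation, red cell membrane and haem synthesis lists. It is also lowest in the iron handling, mitochondrially encoded and interferon-stimulated lists. It is highest in both neutrophil lists and in the monocyte list. The list means of mitochondrially encoded and iron handling genes are lower in all 4 BKDL than in all 3 FKDL libraries, while the medians of their genes' log2 fold changes are -0.31 and -0.06 with TMM, and 0.35 and 0.43 with total counts, against 0.05 and 0.67 for all genes. Such separation is not particular to these lists. Proteasome genes have 2.892 to 3.12 in BKDL and 3.288 to 3.465 in FKDL libraries. Genes of glutathione and peroxide defence have 2.951 to 3.199 and 3.262 to 3.484. Cytosolic ribosomal protein genes separate narrowly, at 7.424 in BKDL 1 and 7.429 in FKDL 1.

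Genes were then followed along the globin share itself, as the slope of log2 expression per 10 percentage points in the 7 libraries. Of 9881 genes, 337 were called (3.41%), of which 160 rose (1.62%) and 177 fell (1.79%). Those that rose included 11 of 25 genes of reticulocyte maturation, and those that fell 3 of 12 neutrophil granule genes, of which 1 other rose. The slope rests on BKDL 1: without it the shares span only 56.4 to 63.0%, 0 genes were called by edgeR and 874 had an unadjusted p under 0.05. With counts scaled to the total alone, the median slope of all genes was -0.64 and 8164 genes were called, 33 rising and 8131 falling, so directions here are relative to the bulk of genes. None of the 6 genes called between the series was among the 337.

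Of 25 tested genes of reticulocyte maturation 11 rose and 0 fell, with a median slope of 0.56 beside 0.02 for all genes; with total counts the median turned to -0.13 beside -0.64 for all genes, 1 rose and 10 fell. AHSP, the chaperone of alpha-globin, had scaled CPM of 1108, 1106 and 997 in FKDL and 37.0, 405.7, 759.9 and 928.8 in BKDL libraries. Its level was lowest in BKDL 1, and its slope was 1.29 ± 0.24 (edgeR adjusted p = 0.0163), falling to 0.45 without that library (adjusted p = 0.928). BNIP3L, which clears mitochondria from reticulocytes, rose by 0.65 ± 0.15, UBE2O, a ubiquitin ligase that clears old proteins there, by 0.87 ± 0.17, and BPGM, which makes the haemoglobin regulator 2,3-bisphosphoglycerate, by 0.83 ± 0.17. UBE2O stood at 689 to 1431 in FKDL and at 133.0, 815, 1251 and 1258 in BKDL libraries.

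Other red cell genes rose in smaller numbers. In the list of red cell membrane genes 4 of 23 rose: AQP1, DMTN, SPTB and RHCE, with slopes of 0.60, 0.84, 0.64 and 0.78. Among haem synthesis genes 1 of 13 rose, FECH, which inserts iron into haem, with a slope of 0.92 ± 0.19 and levels of 298.4 to 519.5 in FKDL and 46.8, 240.8, 590.2 and 560.2 in BKDL libraries. In iron handling it was NCOA4, the receptor that sends ferritin to breakdown, with 0.91 ± 0.16. ALAS2, the first enzyme of haem synthesis in red cells, had 0.90 ± 0.23 and was not called (adjusted p = 0.0556). ARG1, listed among neutrophil granule genes, rose by 0.92 ± 0.18, with 299.0 to 411.0 in FKDL and 38.8, 196.1, 335.3 and 558.6 in BKDL libraries. In the proteasome list 3 of 32 rose, PSMF1, PSME4 and PSMD4. Over all 9881 tested genes 160 rose (1.62%). A slope above 0 was not confined to red cell lists. Among interferon-stimulated genes 38 of 39 had one, with 1 called and a median of 0.42. The median was 0.43 for red cell membrane genes, 0.19 for haem synthesis genes and 0.02 for all genes. With counts scaled to the total alone, 0 red cell membrane genes rose and 10 fell, with a median slope of -0.235. In haem synthesis 0 rose and 8 fell (median -0.46), and in iron handling 0 rose and 9 fell (-0.47). Over all genes the median was then -0.64, and 67 of the 160 genes that rose had a slope below 0.

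By the size of the slope, the genes that rose most with at least 5 scaled CPM were INMT at 1.83 ± 0.25, GPNMB at 1.39 ± 0.21, AHSP, REXO2 at 1.19 ± 0.20, TRMO at 1.14 ± 0.16, ATOX1 at 1.03 ± 0.23, SOX6 at 1.00 ± 0.14 and SLC25A39 at 1.00 ± 0.19. SOX6 is a transcription factor of red cell maturation, and SLC25A39 carries glutathione into mitochondria. REXO2, a mitochondrial ribonuclease, stood at 303.7, 172.6 and 146.1 in FKDL and at 11.11, 118.5, 182.4 and 299.0 in BKDL libraries. SOX6 stood at 18.2, 18.6 and 22.03 in FKDL and at 1.70, 11.01, 17.1 and 29.5 in BKDL libraries. BKDL 1 was the lowest library in each of these 8 genes, which follows from choosing them by a slope that rests on BKDL 1. The other 6 libraries overlapped between the series except in AHSP and ATOX1, where the FKDL libraries were all higher.

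Among the transcripts that fell, LCN2 and LTF, iron-binding proteins of neutrophil granules, led the list of neutrophil granule genes, of which 3 of 12 fell and 1, ARG1, rose. LCN2 stood at 13.3, 3.26 and 2.77 scaled CPM in FKDL and at 171.1, 2.14, 1.29 and 0.930 in BKDL libraries, with a slope of -1.64 ± 0.25 (adjusted p = 0.0198). LTF stood at 12.4, 1.93 and 2.47 in FKDL and at 151.9, 10.8, 5.53 and 1.96 in BKDL libraries, with a slope of -1.45 ± 0.18 (adjusted p = 0.00658). In both, BKDL 1 was more than 10 times every other library, and its place at the top follows from how these genes were chosen. The third was PGLYRP1, a bacteria-binding granule protein, at -0.89 ± 0.10.

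Of 15 genes of mature neutrophils 2 fell, PADI4 and NCF4, and none had a slope above 0; the median was -0.38. PADI4, which citrullinates histones, stood at 67.7, 53.6 and 25.4 in FKDL and at 210.4, 49.4, 34.8 and 18.6 in BKDL libraries. Of 16 monocyte genes 2 fell: CD163, the scavenger receptor for haemoglobin, at -0.83 ± 0.16, and MS4A7 at -1.25 ± 0.25. CD163 stood at 60.8, 18.0 and 24.3 in FKDL and at 162.5, 39.5, 18.5 and 8.88 in BKDL libraries. BKDL 1 was the highest library in PADI4, CD163 and MS4A7, which again follows from their choice by this slope. RETN, ATF5, PRDX5 and TNFRSF4 were the other named genes that fell, at -1.20, -1.37, -0.88 and -0.81. T cell and B cell lists held no called gene (medians 0.02 and 0.05). Over all 9881 tested genes 177 fell (1.79%). Falls were not confined to neutrophil and monocyte lists. In the heat shock list 2 of 17 fell and 16 had a slope below 0. In the lists of glucocorticoid response and of glutathione and peroxide defence 2 of 18 and 2 of 20 fell.

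The 12 controls of batches 1 and 2, which share no library with the 7, had globin shares of 41.0 to 68.0%. Here 0 of 9546 tested genes were called by edgeR with batch and sex terms (0%), 342 had an unadjusted p under 0.05, and DESeq2 called 49, all rising. Of the 160 genes that rose in the 7 libraries 154 were tested in the 12, and 144 of them (93.5%) had a slope above 0, with a median of 0.71, against 49.5% of all genes. Of these 154, 86 had an unadjusted p under 0.05 with a slope above 0 and 0 with one below. Of the 9338 genes tested in both sets, 268 had such a p with a slope above 0 and 69 with one below. AHSP had a slope of 1.01 (unadjusted p = 0.0108) in the 12, SOX6 1.03, REXO2 1.24, GPNMB 1.82 and ARG1 1.12.

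Of the genes that fell in the 7, 176 were tested in the 12. There 132 of them (75.0%) had a slope below 0, beside 50.5% of all genes, and their median was -0.17. An unadjusted p under 0.05 with a slope below 0 was found for 4 of the 176, beside 69 of 9338 genes tested in both sets. With a slope above 0 it was found for 0 of the 176, beside 268 of the 9338. LCN2 and LTF had slopes of -0.03 each, CD163 0.23 and PRDX5 0.21, while ATF5 had -1.14 (unadjusted p = 0.0285). In the 12 controls LCN2 was highest in a batch 2 library, at 48.4 scaled CPM, and LTF likewise, at 177.0. The batch 2 control with the lowest share (41.0%) was then left out. Still 142 of the 154 (92.2%) had a slope above 0, beside 46.3% of all genes. A slope below 0 was found for 142 of the 176 (80.7%), beside 53.7% of all genes. An unadjusted p under 0.05 with a slope above 0 was found for 39 of the 154, beside 184 of 9338 genes. A test of the difference of the slopes between the 7 and the 12 called 0 genes by edgeR, with 508 at an unadjusted p under 0.05.

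**Figure D5:**
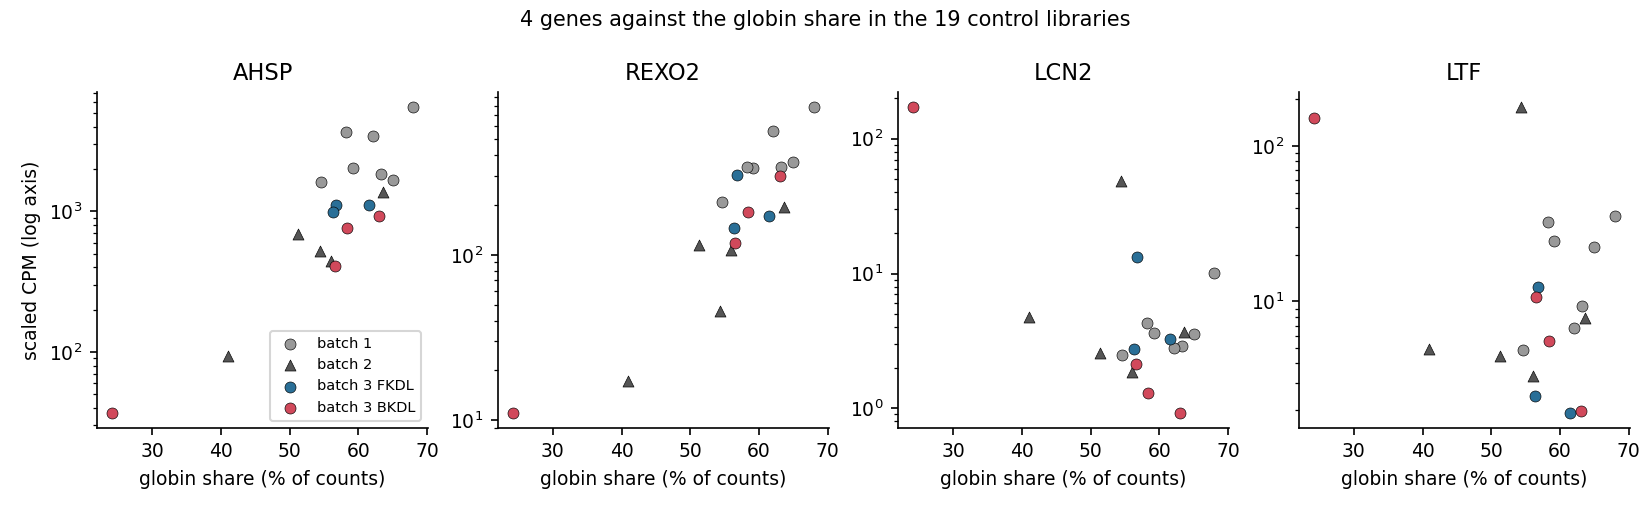
Scaled CPM (log axis) of AHSP, REXO2, LCN2 and LTF against the globin share (% of counts on genes) in the 19 control libraries, 1 point per piglet, coloured by batch and series. BKDL 1, at 24.1%, has the lowest AHSP (37.0) and REXO2 (11.11) and the highest LCN2 (171.1), while LTF is higher in 1 batch 2 library (177.0).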

How the data were processed

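The deposited files hold raw read counts per Ensembl pig gene as the authors counted them, 1 file per piglet. Per the submitters' processing notes, Trim Galore, TopHat, HTSeq and DESeq2 were used with the build Sscrofa11.1; no version, counting mode or strand use is stated there. Each file has 25880 genes and 5 closing lines, which stayed out of library sizes and tests (their shares are in the report). Symbols matched 14857 genes, and RefSeq spans (Sscrofa11.1) 8200 of the tested ones. No 2 libraries of a series agreed within sampling noise (lowest chi-square per degree of freedom 26.8).

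The series were compared with edgeR 4.0.16 (R 4.3.3; quasi-likelihood F test, TMM, robust dispersions, Benjamini-Hochberg, FDR 0.05) in all 39 libraries with 9 group terms and sex, on the 9881 genes that filterByExpr (minimum count 10) kept in the 7. Slopes on the globin share (HBB, HBM, HBZ, HBQ1) used the 7 libraries, or the other 12 controls with batch and sex. SE is the size of the log2 value divided by the square root of F. Library makeup was tested by exact permutation of the 7. The fits were tested on simulated data.

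The rule for named genes took called genes that have a symbol and average at least 5 scaled CPM: 15 in each direction by size of change (slope: 8 in each), or all of them and the 5 of smallest p where fewer passed, up to 4 per list, and markers; other names were chosen after their values were seen. The members, the 38 lists and the comparisons were chosen with earlier results of these data known, and lists are described by counts with no test; liver, gut epithelium and non-coding RNA lists had no tested gene. Each library is a separate piglet in the labels. Alternatives were DESeq2 1.42.0, limma 3.58.1 voom, other scalings, filters, samples and terms, and leaving out each library. The scaling of the slope to totals or size factors, the comparison with batch 2, the test between slopes and the gene length summaries were chosen after seeing the data. A few genes are not reported here.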

Additional observations from a re-analysis of the deposited data

Results flagged for a closer look

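In some measures 1 of the 4 BKDL libraries lay far from the other 3, by a ratio of its gap to the range above Dixon's 95% critical value, which chance passes in about 1 of 20 groups. Of 68 measures checked 16 passed this value, 15 of them for BKDL 1. In library makeup, whose measures depend on each other, BKDL 1 was lowest in the globin share (24.1%, ratio 0.834), the share of the top 10 genes (41.8%, 0.886) and reads at several places (31.2%, 0.983), and highest in the mitochondrially encoded share (0.804%, 0.930), ambiguous reads (5.62%, 0.916) and reads outside features (4.08%, 0.835). Outside globin and the second gene, BKDL 1 instead had the lowest mitochondrially encoded share, at 1.24% against 1.40 to 1.90% in the other batch 3 controls. BKDL 1 was also lowest in the globin list (0.839). Of genes named for a fall along the globin share, it was highest in scaled CPM of LCN2 (0.993), ATF5 (0.984), MS4A7 (0.982), PRDX5 (0.968), RETN (0.944), TNFRSF4 (0.942) and LTF (0.941). That slope rests on BKDL 1, so its place in these genes follows from how they were chosen, and the rate given by chance does not apply to them. ENSSSCG00000018076 had a ratio of 1.000 because the other 3 libraries had 0 counts of it. Y-linked genes set BKDL 2 apart (1.000), the only BKDL library labelled male.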

How the results depend on the processing

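With 4 and 3 piglets and the FKDL piglets all male, the number of genes called between the series moved with the model, mostly downward calls, while the fold changes of FTL (-4.64 to -3.76), RPL36A, SYVN1, HEPACAM and PFN1 kept their sign in all 23 alternatives. The 6 calls became 28 with DESeq2 (27 lower), 58 with limma voom (52 lower), 30 without the sex term, 22 in the 7 libraries alone without sex, 0 there with sex, 0 in male libraries alone, 2 in the 19 controls and 10 with the globin share as a term. Leaving out 1 library gave 0 to 13 calls: 0 without BKDL 2 or BKDL 3, 1 without FKDL 2, 3 without FKDL 3, and 13 without BKDL 1, among them all 6. Without BKDL 1, there were 84 in the 6 libraries alone, 54 with DESeq2 and 39 with the globin share as a term (the last 3 chosen after seeing the data). FTL was still called in 18 of the 23 alternatives, RPL36A and SYVN1 in 13. Scaling to total counts moved the median of all genes to 0.67 and left 4 calls. The 337 calls along the globin share became 880 with DESeq2, 1043 with the series and 549 with sex as a term, 221 with the second gene added to the share, and 8164 with total counts; leaving out 1 library gave 0 (BKDL 1) to 330, with 210 without BKDL 3 and 208 without BKDL 4. The slope of TNFRSF4 ranged from -0.903 to 0.322 as 1 library was left out and changed sign without BKDL 1. In the 12 other controls 0 calls became 49 with DESeq2, 14 without sex and 0 to 1 without 1 library, and between the FKDL controls of batches 3 and 2 DESeq2 gave 26. Leaving out 1 library moved the BKDL minus FKDL difference in globin share between -11.84 and 1.12 percentage points (1.12 without BKDL 1), in counts on genes between -1.85 and 1.00 M and in reads outside features between -0.773 and 0.547 percentage points; these cross 0. The cause of these changes was not tested. No paired analysis was possible because the labels give the piglets no shared replicate numbers.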
